A study of Sus scrofa with 18 samples.

Results

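Mitochondrial and peroxisomal fatty acid oxidation was followed through 37 genes, chosen by gene symbol from the pathway's known enzymes, transporters and nuclear receptors. All 37 were found among the 29884 genes of the count table, and all 37 had enough counts to be tested in each of the 9 pairwise comparisons. Male pigs of Bama, a Chinese miniature breed, gave subcutaneous adipose tissue (SAF) from the back over the last ribs and visceral adipose tissue (VAF) that lay beside the kidney. The pigs were wild type and received no treatment, came from a single sire, were raised under the same conditions and were all fasted before slaughter. RNA-seq covered 6 groups of 3 libraries, namely SAF and VAF at 1 month (SAF1, VAF1), at 3 months (SAF3, VAF3) and at 6 months (SAF6, VAF6), with 3 pigs at each age. VAF6-3, the third VAF library at 6 months, entered no main test because the study left it out, so that VAF6 had 2 libraries in every main test below. The labels of 4 VAF samples give 2 readings of the age. Under the other reading VAF6-1 belongs to VAF3, and VAF3-3 becomes the third VAF6 library and is left out. VAF6-2 and VAF6-3 then stand for VAF6, so that reading also changes which library is excluded. Groups here follow the library names, and counts of calls and median fold changes of the 37 genes that moved by over 1.5 times under the other reading are given with it.

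Fatty acids enter the mitochondrion as carnitine esters and are shortened there by repeated cycles of dehydrogenation, hydration, a second dehydrogenation and thiolysis. Peroxisomes start the breakdown of very long and branched chains with their own set of enzymes, and PPARA and PPARD are ligand-activated receptors that switch on many of these genes. White fat cells mainly store and release fatty acids, and their own oxidation of them is low next to that of muscle, liver or brown fat. The levels below are CPM, read counts scaled by library size and by edgeR's trimmed mean of M values. A gene was called when edgeR's quasi-likelihood test gave a Benjamini-Hochberg adjusted p below 0.05 and a difference above 1.5-fold, and positive log2 fold changes mean higher in SAF or at the older age. Interactions of depot and age were called on the adjusted p alone, with no limit on the size of the difference.

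Sequences upstream of 3 gene starts are shown because ECI2 was 1 of the 2 genes called, ECI1 encodes the related isomerase, and HADHA and HADHB, which encode both subunits of the mitochondrial trifunctional protein, start back to back. Sequences and positions are from RefSeq on Sscrofa11.1. In the 250 bases upstream of the annotated starts of 19544 protein-coding genes, the nuclear receptor half-site AGGTCA (searched on both strands) was present in 12.2% of windows and in those of 6 of the 37 genes, namely CPT2, ACAT1, ECI1, ECI2, DECR1 and AMACR. The extended half-site TCAAGGTCA, which contains AGGTCA, was present in 0.333% of all windows and in 1 of the 37, that of ECI2. The direct repeat AGGTCANAGGTCA was present in 0.0256% of all windows and in 0 of the 37. In the ECI2 window (chr7:2446173-2446422, minus strand) the capitals mark the extended half-site, read on the opposite strand, and in the ECI1 window (chr3:39750492-39750741, plus strand) they mark the half-site on the opposite strand. These matches describe letters only.
ECI2: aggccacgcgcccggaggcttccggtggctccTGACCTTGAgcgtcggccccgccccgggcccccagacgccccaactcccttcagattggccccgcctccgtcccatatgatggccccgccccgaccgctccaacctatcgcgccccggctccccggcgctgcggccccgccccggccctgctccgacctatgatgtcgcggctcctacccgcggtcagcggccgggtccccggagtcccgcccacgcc
ECI1: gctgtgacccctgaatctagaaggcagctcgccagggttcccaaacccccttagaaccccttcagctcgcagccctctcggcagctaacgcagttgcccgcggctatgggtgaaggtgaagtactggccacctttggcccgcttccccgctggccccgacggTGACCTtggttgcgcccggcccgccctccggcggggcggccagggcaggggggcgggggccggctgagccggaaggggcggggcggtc

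HADHB, on the minus strand of chromosome 3, and HADHA, on the plus strand, were separated by 221 bases (chr3:112753122-112753342, shown on the plus strand, with no motif match to mark). None of the motifs above, nor GGGCGG or CCAAT, was found in this stretch. The last 2 motifs were present in 45.9% and 31.9% of all upstream windows and in 26 and 15 of those of the 37 genes.
HADHB-HADHA: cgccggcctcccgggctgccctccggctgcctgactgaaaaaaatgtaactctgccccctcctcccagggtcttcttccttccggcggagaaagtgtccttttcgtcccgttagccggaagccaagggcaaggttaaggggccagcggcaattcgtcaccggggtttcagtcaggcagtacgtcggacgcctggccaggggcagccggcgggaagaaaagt

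Library totals ran from 16404239 to 22857354 counts, of which the 37 genes took between 0.368% and 0.707%. The lowest 2 shares were those of VAF3-2 at 0.368% and VAF3-1 at 0.422%. In these libraries the summed level of 9 adipocyte markers was 3260 and 4359 CPM, against 7177 to 14628 CPM in the other 16, and that of 5 smooth muscle markers was 6050 and 7096 CPM, against 200.04 to 870 CPM. Their 5 urothelium markers summed to 539 and 1417 CPM, with 4 of 5 detected and KRT20 at 0, against 0.155 to 5.05 CPM elsewhere. The kidney tubule markers summed to 43.5 CPM in VAF3-3 and to between 1.44 and 6.58 CPM in the other libraries. SAF6-3 and VAF6-3 stood apart in another way, with 140 and 257 CPM of FASN, the fatty acid synthase, against 24478 to 40920.4 CPM in the other 4 libraries of that age. Their adipocyte markers summed to 11305 and 10435 CPM, but single markers went in opposite directions. In both libraries CIDEC (411 and 459 CPM), LPL (986 and 1002 CPM), LEP (5.27 and 7.55 CPM) and PPARG (194 and 154 CPM) were below those 4 libraries. PLIN4 (2900 and 3393 CPM) was above them, and the remaining markers were not apart in both. Fewer fat cells and less RNA of a gene per fat cell cannot be told apart in such bulk samples.

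**Figure D1:**
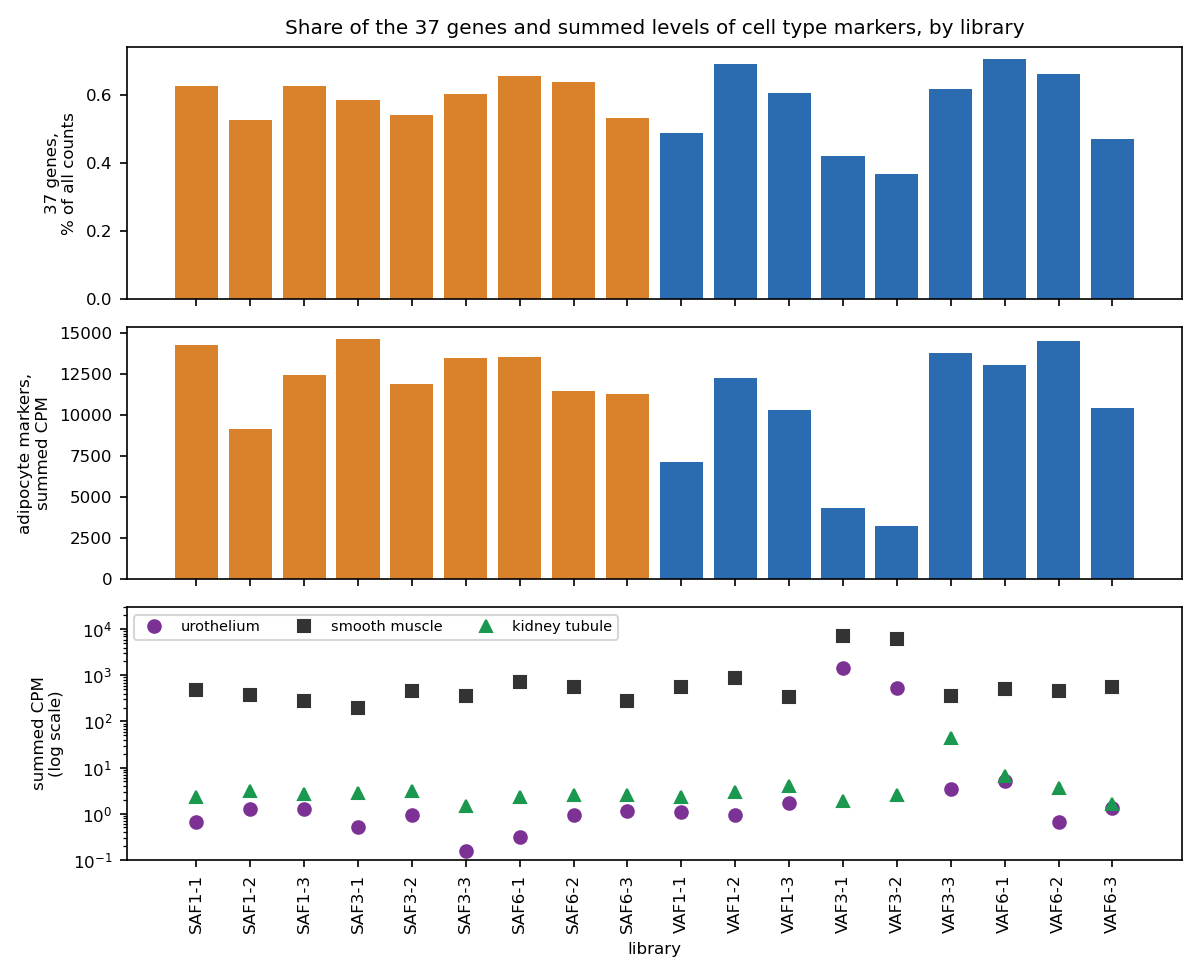
Share of all counts taken by the 37 genes (upper bars, %), summed CPM of 9 adipocyte markers (middle bars) and summed CPM of urothelium, smooth muscle and kidney tubule markers (points, log scale) in the 18 libraries, SAF in orange and VAF in blue. VAF3-1 and VAF3-2 have the lowest shares (0.422% and 0.368%), the lowest adipocyte sums and the highest urothelium and smooth muscle sums.

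To compare genes with each other, levels were divided by the length of annotated exon (CPM per kb), and means ± SD over the 17 tested libraries are given. ECHS1, the enoyl-CoA hydratase, was the most abundant at 406 ± 118 CPM per kb, followed by HADH, the hydroxyacyl-CoA dehydrogenase, at 296 ± 87.7 CPM per kb. Then came the thiolase ACAA1 at 183 ± 53.0 CPM per kb and the isomerase ECI1 at 181 ± 66.2 CPM per kb, which did not differ beyond their spread. The carnitine acyltransferases of the entry step were far lower, with CPT1A at 16.6 ± 7.78, CPT2 at 15.2 ± 4.08 and CPT1B, the muscle form, at 5.71 ± 3.19 CPM per kb. Both HADHA (118 ± 10.8 CPM per kb) and HADHB (116 ± 23.3 CPM per kb) lay at the same level. The receptor PPARA was the lowest of all at 3.10 ± 2.49 CPM per kb, in libraries that ranged from 0.414 to 10.2 CPM, and its annotated exons may lack untranslated sequence. PPARD reached 30.0 ± 14.4 CPM per kb.

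**Figure D2:**
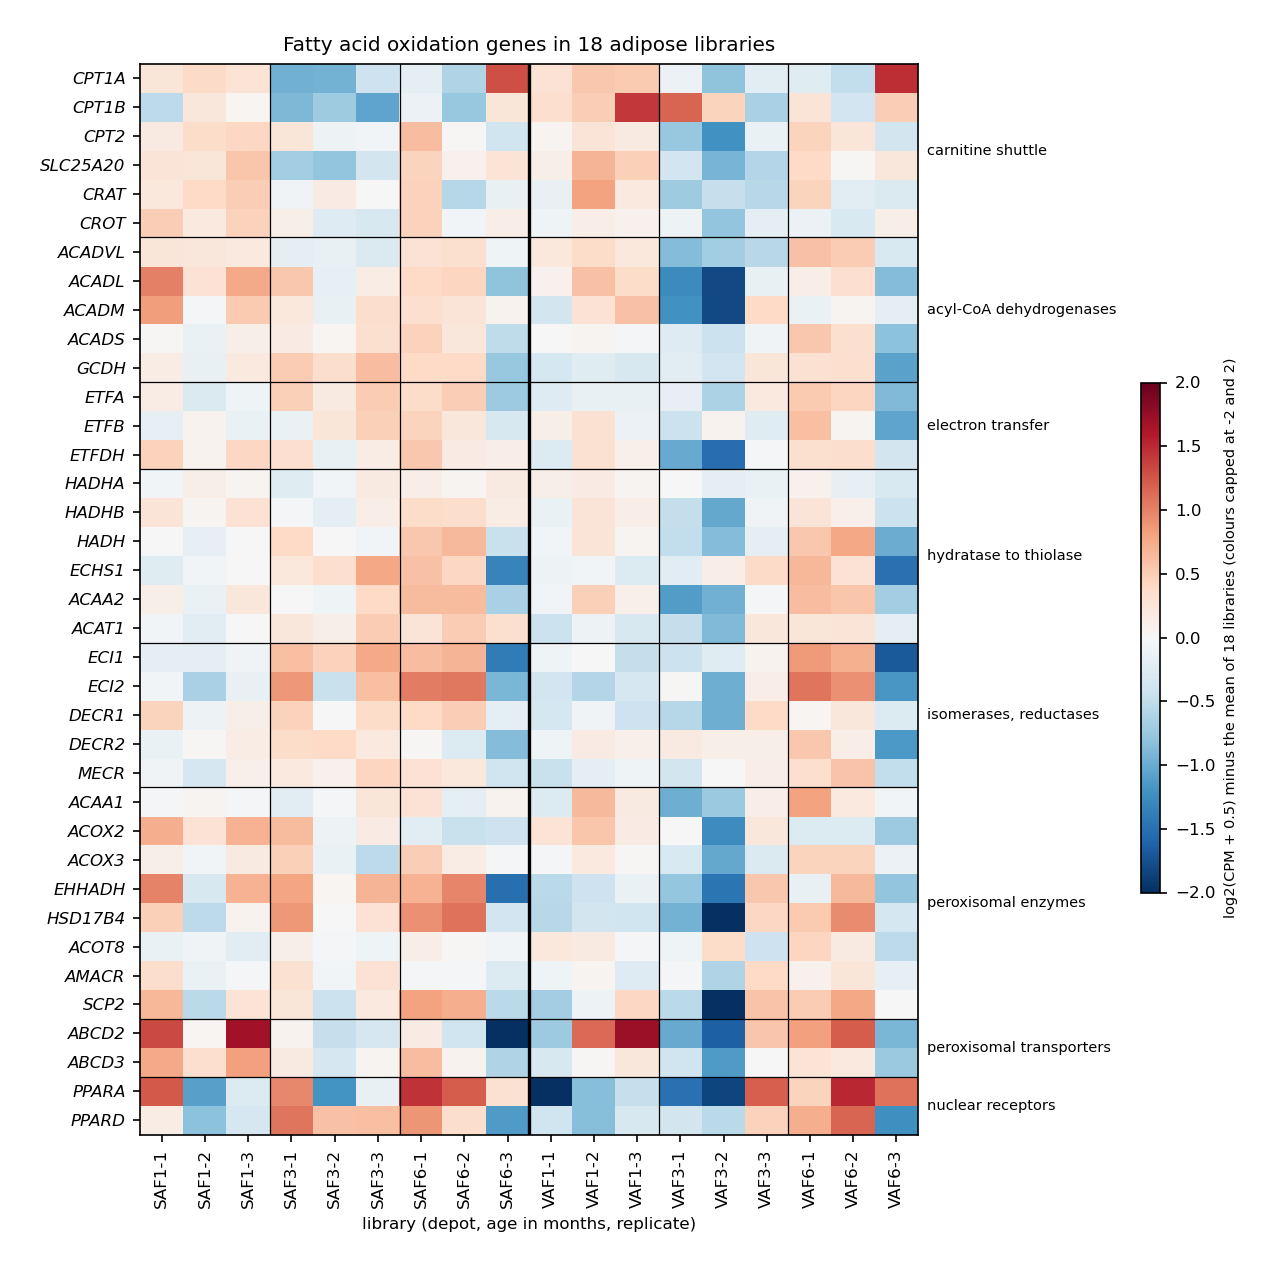
Level of each of the 37 genes (rows, grouped by role) in each of the 18 libraries (columns), as log2(CPM + 0.5) minus the gene's mean over the 18 libraries. VAF3-2 was the lowest library for 15 genes and VAF6-3 for 13, while CPT1A was highest in VAF6-3 (195 CPM) and SAF6-3 (170 CPM).

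In VAF the mean of the tested libraries was lowest at 3 months for 23 of the 37 genes and highest at 6 months for 28, against 14 and 13 in SAF. Shares over all genes were not computed for these counts. The VAF means leave out VAF6-3, the lowest of the 3 VAF6 libraries for 32 genes. The SAF means keep SAF6-3, the lowest of the 3 SAF6 libraries for 28 genes, so these counts do not treat the 2 depots alike. The 3-month means include VAF3-1 and VAF3-2, the libraries with low adipocyte and high smooth muscle and urothelium markers. With VAF6-3 in the 6-month mean, HADHB (268 CPM, against 285 CPM in VAF1) and others were no longer highest at 6 months, while CPT1A became so. Only 2 genes passed edgeR's test in any of the 9 comparisons, both of them in VAF at 6 months against 1 month. These were ECI2, an isomerase that prepares unsaturated fatty acids for the cycle, and PPARD. ECI2 stood at 94.1, 82.0 and 97.4 CPM in the VAF1 libraries and at 258 and 233 CPM in VAF6-1 and VAF6-2. Both older libraries were above all 3 younger ones, with a log2 fold change of 1.43 ± 0.16 (SE, adjusted p = 0.0273, edgeR). PPARD rose from 83.1, 60.4 and 87.8 CPM to 181 and 245 CPM, a log2 fold change of 1.47 ± 0.23 (SE, adjusted p = 0.0472). In VAF6-3, which was not tested, ECI2 was at 54.5 CPM and PPARD at 46.5 CPM, below every VAF1 library. With VAF6-3 included the adjusted p of neither gene passed, and the number of calls was 0, as it was under the other reading of the labels. Without single libraries the count was 0 or 1, and it was 1 (ECI2, among 0.874% of all genes) only without VAF1-1. ECI2 overlaps LOC110261764 on the opposite strand, and the strand setting of the counting was not given in the sources used here, so its counts may include reads of that gene.

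These 2 calls were 2 of 37 genes, where 142 of 15175 genes, or 0.936%, were called over the whole table. A further 14 genes had an unadjusted p under 0.05, which makes 16, and the median log2 fold change of the 37 was 0.29 beside -0.022 over all genes. It was 0.092 with VAF6-3 included and -0.12 under the other reading of the labels. DESeq2 called 10 of the 37 and 5.65% of all genes, namely CPT1A as lower and ECHS1, ECI1, ECI2, ETFA, GCDH, HSD17B4, MECR, PPARA and PPARD as higher at 6 months. The replicate block, which here matches different pigs by number alone, called 5 of the 37 and 5.46% of all genes. These were HSD17B4, PPARA and SCP2 beside ECI2 and PPARD. Without the filter on low counts 3 of the 37 and 1.74% were called, with HSD17B4 beside ECI2 and PPARD. In 19 of the 37 both VAF6 libraries lay above all 3 VAF1 libraries, against 18.4% of 16101 genes. By role, all 5 isomerases and reductases had positive fold changes (median 0.69), and 5 of the 6 carnitine shuttle genes had negative ones (median -0.25).

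HSD17B4, the peroxisomal multifunctional protein, just missed the limit in the same comparison. It was at 221, 251 and 247 CPM in VAF1 and at 467 and 629 CPM in VAF6-1 and VAF6-2, with a log2 fold change of 1.19 ± 0.20 (SE, adjusted p = 0.0554). CPT1A, which makes the acylcarnitines that enter the mitochondrion and is the step held back by malonyl-CoA, had the lower mean in the 2 tested libraries of 6 months. It was at 84.8, 101 and 100 CPM in VAF1 and at 58.5 and 48.9 CPM in VAF6-1 and VAF6-2, a log2 fold change of -0.83 ± 0.17 (SE, adjusted p = 0.082). With VAF6-3, at 195 CPM, the VAF6 mean was 101 ± 81.6 CPM (SD, n = 3), above the VAF1 mean of 95.1 ± 8.98 CPM.

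**Figure D3:**
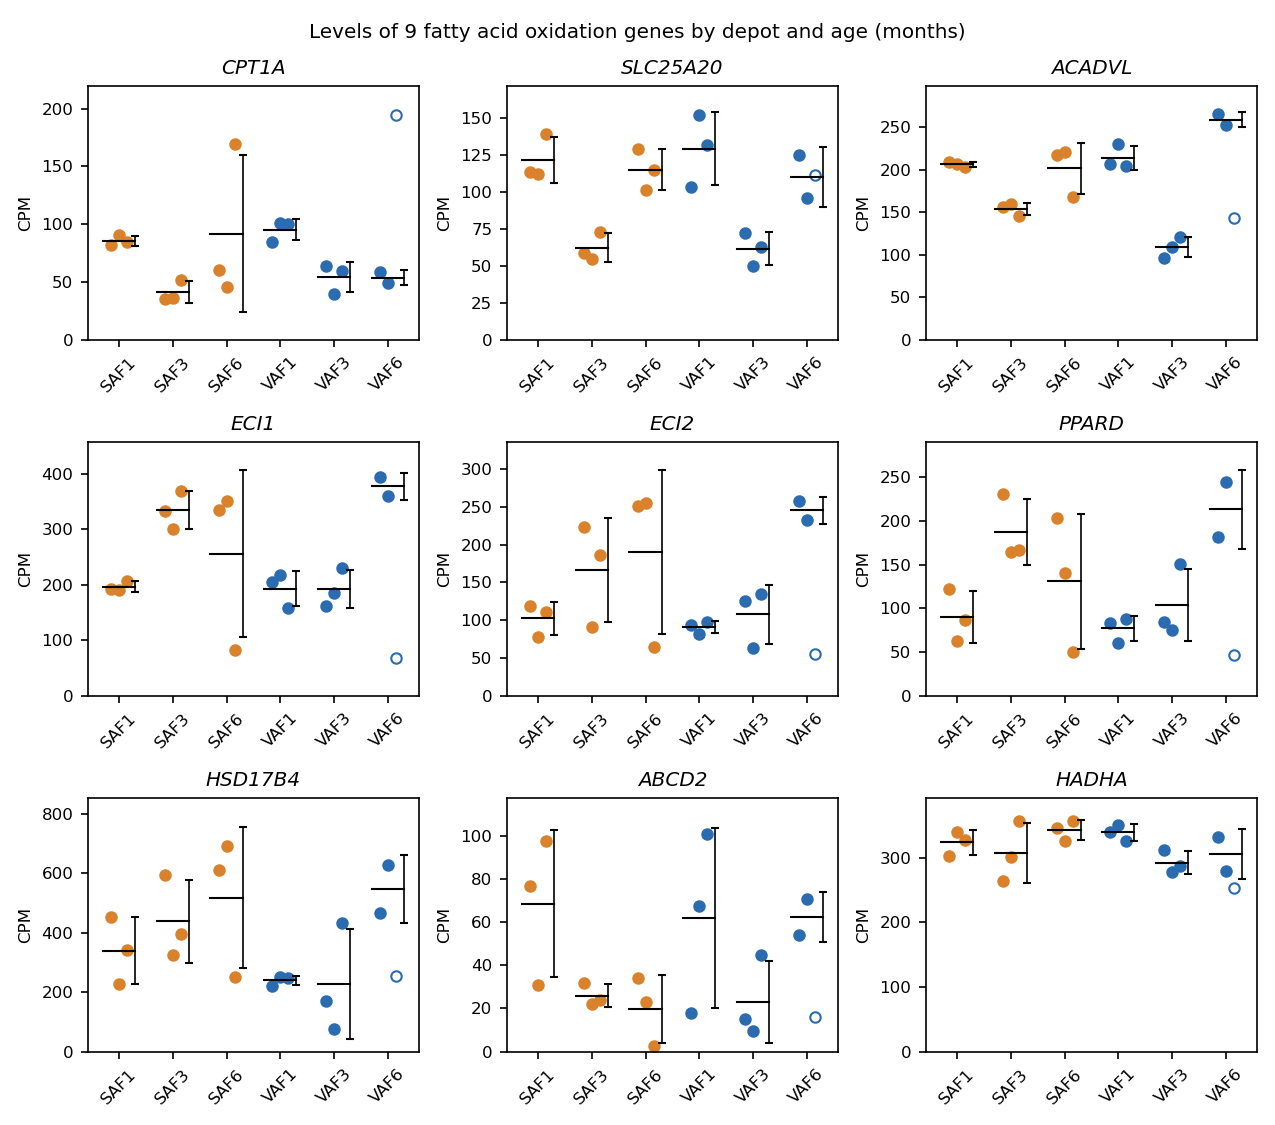
CPM of 9 of the genes in each library by group, with the mean (line) and SD (bar) of the tested libraries and VAF6-3 as an open circle that enters neither. CPT1A and SLC25A20 are lower at 3 months than at 1 month in both depots without overlap, ECI2 and PPARD are higher in VAF6-1 and VAF6-2 than in VAF1, and HADHA stays between 253 and 357 CPM in all 18 libraries.

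The carnitine shuttle was lower at 3 months than at 1 month in both depots on the means of all 6 genes, and the test described above called none of these differences. DESeq2 called CPT1A, CPT1B and SLC25A20 in SAF, among 2.5% of all genes, and SLC25A20 in VAF, among 2.82%. CPT1A and SLC25A20 were also called in SAF when the fit blocked on replicate number (3 of the 37 and 1% of all genes) and without the filter on low counts (2 of the 37 and 0.567%). That block matches different pigs of the 2 ages by number alone. SLC25A20 was called in VAF, with ACADVL, in one fit over all 17 libraries (2 of the 37 and 1.67%). In SAF, CPT1A was at 82.1, 90.2 and 84.3 CPM at 1 month and at 35.4, 35.9 and 52.0 CPM at 3 months. The groups did not overlap, and the log2 fold change was -1.07 ± 0.17 (SE, adjusted p = 0.0709). SLC25A20, the carrier that exchanges acylcarnitine for carnitine across the inner membrane, went from 113, 112 and 140 CPM to 58.4, 54.9 and 73.3 CPM, a log2 fold change of -0.98 ± 0.16 (SE, adjusted p = 0.0723). In VAF the same carrier was at 103, 153 and 132 CPM at 1 month and at 72.4, 49.8 and 62.8 CPM at 3 months, a log2 fold change of -1.06 ± 0.24 (SE, adjusted p = 0.34). VAF libraries held CPT1A at 64.1, 39.5 and 59.2 CPM at 3 months, below all 3 VAF1 libraries, and its log2 fold change was -0.80 ± 0.23 (SE, adjusted p = 0.369). In each depot 5 of the 6 shuttle genes had all 3 libraries of 3 months below all 3 of 1 month, and the exception was CPT2 in SAF and CPT1B in VAF. Over all genes such an order was seen in 9.15% in SAF and in 6.94% in VAF. The 2 comparisons use separate libraries from the same 3 pigs at each age, so the depots are not independent samples of pigs. Whether libraries of the same number come from the same pig is not given.

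In SAF at 6 months SLC25A20 was back at 129, 101 and 115 CPM, all above the 3-month libraries, with a log2 fold change of 0.89 ± 0.19 (SE, adjusted p = 0.21) against 3 months. CPT2, which reforms acyl-CoA inside the mitochondrion, differed less, with group means between 44.4 ± 5.95 CPM (SAF3) and 54.4 ± 4.80 CPM (SAF1) in SAF (SD, n = 3). In VAF it was at 25.5, 18.4 and 39.5 CPM at 3 months and at 59.4 and 51.2 CPM in VAF6-1 and VAF6-2. CPT1B was the shuttle gene with the largest fold change towards VAF at 1 and at 3 months. It was at 10.1, 17.3 and 15.1 CPM in SAF1 and at 18.6, 20.9 and 40.3 CPM in VAF1, a log2 fold change of -0.91 ± 0.34 (SE, adjusted p = 0.425). At 3 months it was at 7.63, 8.76 and 6.86 CPM in SAF and at 33.5, 20.1 and 9.22 CPM in VAF, a log2 fold change of -1.45 ± 0.44 (SE, adjusted p = 0.257). The 2 highest of these values belong to VAF1-3 and VAF3-1. The summed level of 11 skeletal muscle markers was 65.4 CPM in VAF1-3 (MYH1, MYH4 and MYLPF at 0), 153 CPM in VAF3-1 (MYH1 and MYH4 at 0) and 118 CPM in VAF3-2 (ACTA1, MYH4 and MYLPF at 0). It was 95.6 CPM in SAF1-3, where all 11 were detected and CPT1B was at 15.1 CPM, and between 8.41 and 33.7 CPM in the other 14 libraries. Most of the sum in VAF3-1 and VAF3-2 came from PYGM (74.8 and 69.3 CPM) and CKM (61.9 and 32.8 CPM). TNNI2 was at 5.65 and 10.6 CPM and CASQ1 at 9.61 and 4.73 CPM, and every other marker was at 0.559 CPM or less. In VAF1-3 the highest markers were ACTA1 (20.8 CPM), CKM (18.6 CPM) and MYH7 (17.6 CPM). VAF3-1 and VAF3-2 also carried the smooth muscle markers, and the part of muscle cells in the result was not tested. CRAT, carnitine acetyltransferase, stood at 299, 352 and 313 CPM in SAF3 and at 192, 228 and 213 CPM in VAF3, a log2 fold change of 0.59 ± 0.21 (SE, adjusted p = 0.3). CROT, its peroxisomal relative for medium chains, lay between 23.4 and 57.7 CPM in all libraries. At 6 months CROT was at 56.3, 39.0 and 44.4 CPM in SAF and at 37.7 and 32.9 CPM in VAF, a log2 fold change of 0.40 ± 0.23 (SE, adjusted p = 0.707).

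Among the acyl-CoA dehydrogenases, which carry out the first oxidation of each cycle for different chain lengths, ACADVL for very long chains showed the clearest dip in VAF at 3 months. It was at 207, 230 and 204 CPM in VAF1, at 96.7, 109 and 120 CPM in VAF3, and at 265 and 253 CPM in VAF6-1 and VAF6-2. All 3 libraries of 3 months lay below all others of VAF, VAF6-3 (143 CPM) included. The log2 fold change was -0.97 ± 0.19 (SE, adjusted p = 0.329) from 1 to 3 months and 1.24 ± 0.25 (SE, adjusted p = 0.452) from 3 to 6 months. SAF had 209, 207 and 203 CPM at 1 month and 156, 159 and 146 CPM at 3 months. ACADVL overlaps DLG4, DVL2 and MIR324 on the opposite strand, so its counts carry the same doubt about strand as those of ECI2. ACADM, for medium chains, was much more variable. It was at 47.9, 31.6 and 146 CPM in the VAF3 libraries, where the high value was that of VAF3-3, and at 86.4, 136 and 167 CPM in VAF1. GCDH, a dehydrogenase of glutaryl-CoA from amino acid breakdown, was at 106, 85.4 and 109 CPM in SAF1 and at 74.4, 80.4 and 75.7 CPM in VAF1, a log2 fold change of 0.38 ± 0.13 (SE, adjusted p = 0.422). ETFA, ETFB and ETFDH, which pass the electrons on to the respiratory chain, ranged from 54.2 to 145, from 66.5 to 211 and from 61.9 to 259 CPM.

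In the core of the cycle HADHA was the steadiest gene of the 37, with 253 CPM in VAF6-3 and 357 CPM in SAF3-3 as its extremes, a ratio of 1.41. Its partner HADHB, whose start lies 221 bases away, ranged 2.63-fold. HADHB was at 192 and 131 CPM in VAF3-1 and VAF3-2, where HADHA was at 312 and 278 CPM, so that the 2 subunits did not keep one ratio in the libraries with smooth muscle and urothelium markers. HADHB overlaps LOC106509870 on the opposite strand, so its counts carry the same doubt about strand as those of ECI2. HADH was at 331, 255 and 414 CPM in VAF3 and at 677 and 804 CPM in VAF6-1 and VAF6-2, a log2 fold change of 1.14 ± 0.32 (SE, adjusted p = 0.452). ACAT1, the acetoacetyl-CoA thiolase, was at 227, 203 and 237 CPM in SAF1 and at 279, 335 and 292 CPM in SAF6, a log2 fold change of 0.43 ± 0.19 (SE, adjusted p = 0.412).

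The isomerase ECI1, which like ECI2 shifts the bond of unsaturated fatty acids, had a higher mean at 3 months than at 1 month in SAF, where the carnitine shuttle had lower ones. It was at 192, 191 and 208 CPM in SAF1 and at 334, 301 and 370 CPM in SAF3, a log2 fold change of 0.75 ± 0.14 (SE, adjusted p = 0.0913). VAF3 had 162, 186 and 230 CPM, all below SAF3, and the log2 fold change between depots at 3 months was 0.78 ± 0.23 (SE, adjusted p = 0.24). VAF6-1 and VAF6-2 had 395 and 360 CPM, a log2 fold change of 0.96 ± 0.28 (SE, adjusted p = 0.452) against VAF3, which was -0.19 under the other reading of the labels. ECI1 overlaps E4F1 and DNASE1L2 on the opposite strand. DECR2, the peroxisomal dienoyl-CoA reductase, was at 67.0, 68.3 and 59.4 CPM in SAF3 and at 53.0, 43.0 and 28.2 CPM in SAF6, a log2 fold change of -0.65 ± 0.24 (SE, adjusted p = 0.442). VAF6-1 and VAF6-2 had 75.5 and 57.2 CPM, a difference between depots at 6 months of -0.68 ± 0.31 (log2, SE, adjusted p = 0.703). DECR1 and MECR ranged from 50.1 to 138 and from 20.4 to 43.2 CPM.

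Of the peroxisomal enzymes, ACOX2, the oxidase of branched chains and bile acid precursors, was the clearest with age in SAF. It was at 42.0, 30.9 and 41.1 CPM at 1 month, at 39.2, 23.4 and 28.1 CPM at 3 months and at 21.8, 18.3 and 18.7 CPM at 6 months. The 6-month libraries lay below all others of SAF, with a log2 fold change of -0.97 ± 0.19 (SE, adjusted p = 0.095) against 1 month and of -0.63 ± 0.22 (SE, adjusted p = 0.429) against 3 months. EHHADH, the bifunctional hydratase and dehydrogenase, was at 136, 54.2 and 110 CPM in SAF1 and at 46.4, 50.9 and 62.1 CPM in VAF1, groups that overlapped. ACOT8, a thioesterase, was among the steadiest, from 18.4 to 36.2 CPM, and was at 24.3, 25.5 and 23.1 CPM in SAF1 and at 29.2, 27.4 and 25.9 CPM in SAF6, a log2 fold change of 0.16 ± 0.16 (SE, adjusted p = 0.727). SCP2, a thiolase and sterol carrier, and HSD17B4 each ranged 8.99-fold, and for both the lowest library was VAF3-2. ACAA1, ACOX3 and AMACR ranged from 373 to 1289, from 18.4 to 53.5 and from 11.4 to 23.2 CPM.

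The peroxisomal transporter ABCD2 was the gene that differed most between libraries, by 37.2-fold. It was at 76.8, 31.1 and 97.6 CPM in SAF1, at 31.8, 21.8 and 23.9 CPM in SAF3 and at 33.9, 22.96 and 2.71 CPM in SAF6. VAF1 spread from 18.02 over 67.2 to 101 CPM, VAF3 had 14.9, 9.46 and 44.8 CPM, and VAF6 had 54.0, 70.5 and, in VAF6-3, 15.9 CPM. At 6 months all 3 SAF libraries were below VAF6-1 and VAF6-2 but not below VAF6-3, and without VAF6-3 the log2 fold change was of -1.65 ± 0.83 (SE, adjusted p = 0.703). A fit with the replicate number as a block called ABCD2, the 1 member among 5.12% of all genes (log2 fold change -1.14, over VAF6-1 and VAF6-2 and their SAF partners, since SAF6-3 has no partner in it). With VAF6-3 in the blocked fit, also added after the data were seen, the log2 fold change was -1.54 ± 0.31 (SE, adjusted p = 0.0842) and 0 of the 37 were called. All 3 same-numbered pairs then deviated together (r = 0.562, 0.45 and 0.633). Deviations from a group mean cancel out within the group, so these r are not separate checks of each pair. ABCD3 was at 125, 93.0 and 131 CPM in SAF1 and at 58.9, 74.9 and 86.1 CPM in VAF1, a log2 fold change of 0.66 ± 0.19 (SE, adjusted p = 0.422). Of the receptors, PPARA had 8.37, 1.28 and 2.61 CPM in SAF1 and 0.414, 1.59 and 2.25 CPM in VAF1, and it was at 4.64 and 10.2 CPM in VAF6-1 and VAF6-2, with groups that overlapped within SAF at all ages. PPARD in SAF was at 122, 62.1 and 86.9 CPM at 1 month and at 231, 164 and 167 CPM at 3 months, without overlap, a log2 fold change of 1.04 ± 0.26 (SE, adjusted p = 0.15).

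Between the depots, edgeR called 0 of the 37 genes at any age. At 1 month 6 of them had an unadjusted p under 0.05, DESeq2 called 0 and 0.842% of all genes, edgeR called 0% of all genes, and the median log2 fold change was 0.14 beside -0.0023 over all genes. At 3 months 33 of the 37 were higher in SAF on the fold change and the median was 0.47 beside -0.0032 over all genes, and 0.27 under the other reading of the labels. In 9 of them the SAF libraries lay above all VAF libraries, against 8.01% of all genes. There 7 had an unadjusted p under 0.05, edgeR called 0.0401% of all genes, and DESeq2 called 2 of the 37 (CPT1B lower and ECI1 higher in SAF) and 4.35% of all genes. At 6 months 28 of the 37 were lower in SAF, with a median of -0.20, 0 had an unadjusted p under 0.05, edgeR called 0% of all genes, and DESeq2 called 0 of the 37 and 0.867% of all genes. This median was 0.006 without SAF6-3, 0.011 with the replicate block, 0.029 with VAF6-3 included and 0.25 under the other reading of the labels.

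Without VAF3-3, which leaves VAF3-1 and VAF3-2 to stand for VAF at 3 months, 15 of the 37 were called between the depots, 14 of them higher in SAF, among 17.6% of all genes, and the median was 0.74. ACADL (log2 fold change 1.70), ACADM (1.61) and HSD17B4 (1.81) were among these 14, and CPT1B (-1.82) was the exception. With VAF3-3 alone for VAF at 3 months, in a fit added after the data were seen, where this lone library is taken to vary like those of the other group, 0 were called (1 at an unadjusted p under 0.05) and the median was 0.093. VAF3-1 and VAF3-2 are the libraries with low adipocyte markers and high urothelium and smooth muscle markers, VAF3-3 has the kidney tubule traces, and the part of these cells in the depot difference was not tested.

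**Figure D4:**
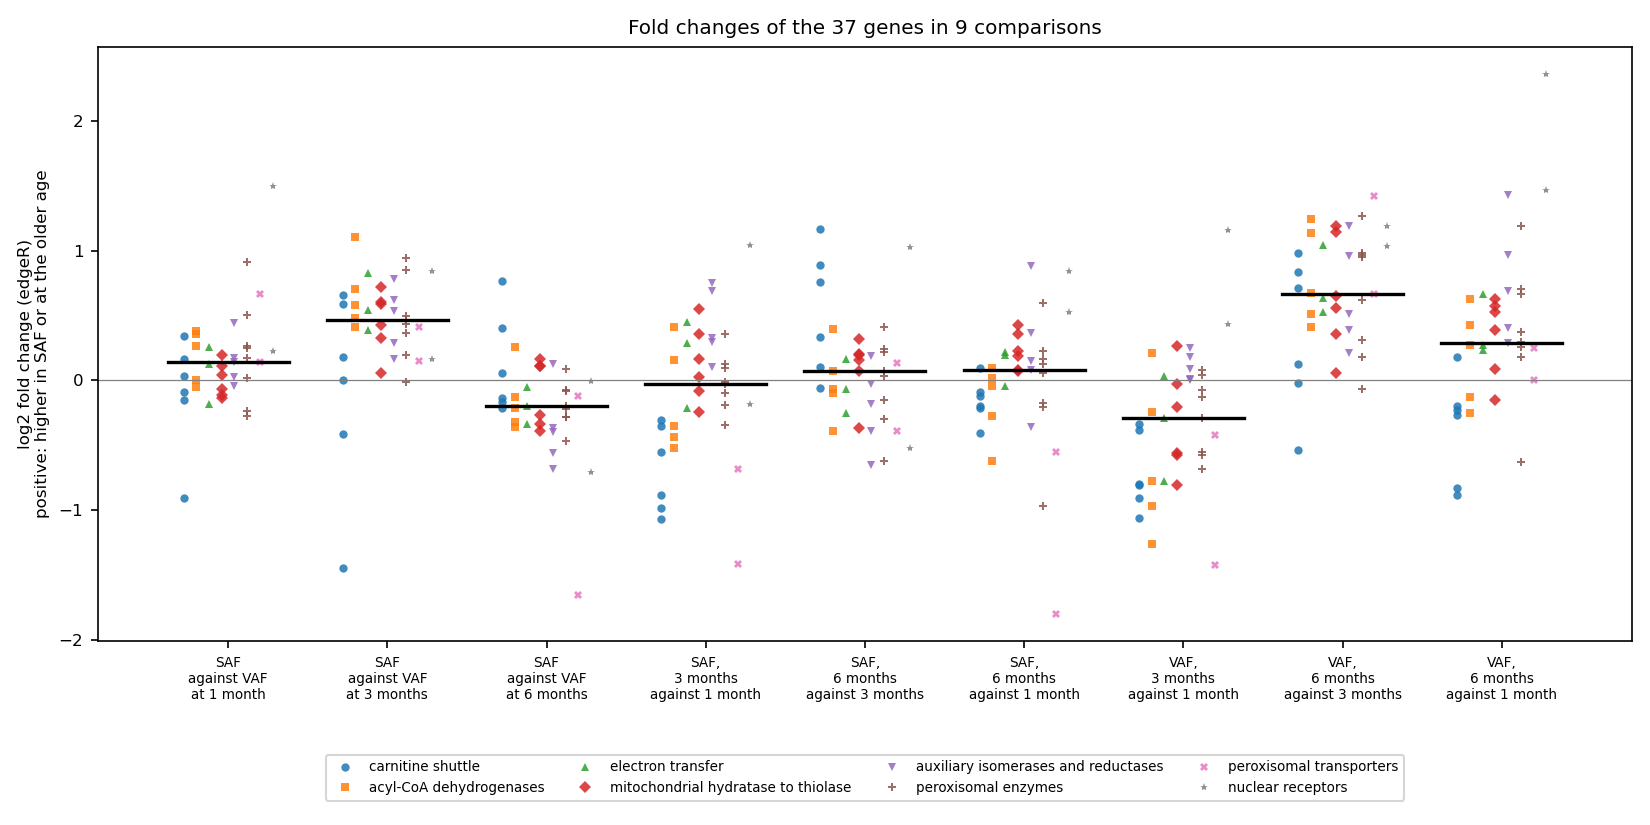
edgeR log2 fold changes of the 37 genes (points, shaped by role) in the 9 comparisons, with the median of the 37 as a black line and positive values for higher in SAF or at the older age. The medians reach 0.47 for SAF against VAF at 3 months and 0.67 for VAF at 6 against 3 months (0.27 and 0.26 under the other reading of the labels), and the carnitine shuttle points lie below 0 at 3 against 1 month in both depots.

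With age in SAF, edgeR called 0 of the 37 in all 3 comparisons. From 1 to 3 months 12 had an unadjusted p under 0.05 and the median was -0.031, since genes differed in both directions. In 7 the 1-month libraries lay above all 3-month libraries, of which 5 were shuttle genes, against 9.15% of all genes. In another 7 the 3-month libraries lay above all 1-month ones, against 10.2% of all genes. DESeq2 called 6 of the 37 and 2.5% of all genes, with ECI1 and PPARD higher and ABCD2, CPT1A, CPT1B and SLC25A20 lower at 3 months, where edgeR called 0.101% of all genes. Without SAF1-2 edgeR called ABCD2 as lower, among 0.198% of all genes. From 3 to 6 months 5 had an unadjusted p under 0.05, in 3 the older libraries lay above all younger ones (6.94% of all genes), and edgeR called 0% of all genes. DESeq2 then called SLC25A20 as higher, 1 of the 37, and 1.61% of all genes. From 1 to 6 months 1 gene, ACOX2, had an unadjusted p under 0.05. There DESeq2 called it as lower, with 2.56% of all genes, and edgeR called 0.303% of all genes. Without SAF6-3 the call of edgeR was ECI2, as higher at 6 months, among 1.6% of all genes.

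In VAF from 1 to 3 months, edgeR called 0 of the 37 and 0% of all genes, 8 had an unadjusted p under 0.05, and the median was -0.29 beside 0.019 over all genes. In 11 the 1-month libraries lay above all 3-month ones, against 6.94% of all genes. DESeq2 called 2 of the 37 (ACADVL and SLC25A20, both lower at 3 months) and 2.82% of all genes. From 3 to 6 months 34 of the 37 had positive fold changes, with a median of 0.67 beside -0.04 over all genes. The median was 0.26 under the other reading of the labels and 0.46 with VAF6-3 included. In 22 both VAF6 libraries lay above all VAF3 libraries, against 14.3% of all genes. There edgeR called 0 of the 37 and 0% of all genes, 10 had an unadjusted p under 0.05, and DESeq2 called ACADVL, ECI1 and HADH as higher, 3 of the 37, and 2.4% of all genes. One fit over all 17 libraries called ACADVL, among 0.042% of all genes. The replicate block, which drops VAF3-3 and matches different pigs by number alone, called 18 of the 37 and 14.7% of all genes. These comparisons also turned on VAF3-3. Without it 6 genes were called as lower at 3 than at 1 month (ACAA2, ACADL, ACADM, ACADVL, CPT2 and ETFDH), among 6.44% of all genes and with a median of -0.72, and 15 as higher at 6 than at 3 months, among 11% of all genes. With VAF3-3 alone 0 were called in either, 12 and 4 had an unadjusted p under 0.05, and the medians were -0.095 and 0.33. Against VAF3-1 and VAF3-2, VAF3-3 held more than 2-fold higher levels of 10 of the 37, among them ACADL, ACADM, ACAA2, EHHADH and HSD17B4, where 9.86% of 14356 genes did so. The part of the urothelium and smooth muscle cells in this was not tested.

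The change with age was also compared between the depots by an interaction term over the 17 libraries. From 1 to 3 months, from 3 to 6 months and from 1 to 6 months edgeR called 0 of the 37 and 0% of 16664 genes each time, and 1, 11 and 1 genes had an unadjusted p under 0.05. DESeq2 called 0, 1 (ACADVL) and 0 of them, and 0.442%, 0.467% and 0.00849% of all genes. Without VAF3-3 edgeR called ETFDH from 3 to 6 months, among 2.38% of all genes. The median of the change in SAF minus the change in VAF was 0.35, -0.75 and -0.32. Under the other reading of the labels these medians were 0.18, -0.14 and 0.017, so that the last changed sign, and with VAF6-3 included they were 0.33, -0.44 and -0.11. They were 0.32, -0.49 and -0.14 without SAF6-3 and 0.59, -0.89 and -0.31 without VAF3-3. ACADVL had the smallest p, with -0.87 ± 0.22 (log2, SE, adjusted p = 0.509) from 3 to 6 months.

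At 6 months the third library of each depot carried another pattern of the 37 genes than the other 2. Relative to the mean of the other libraries of its group (with 0.5 CPM added to both), SAF6-3 had more than 2-fold lower levels of 14 genes and VAF6-3 of 15, where 10.2% and 11.8% of all genes above 1 CPM did so. CPT1A was the 1 gene that was more than 2-fold higher in each, where 6.13% and 10.3% of all genes were. It was at 170 CPM in SAF6-3 against 60.2 and 45.4 CPM, and at 195 CPM in VAF6-3 against 58.5 and 48.9 CPM. ECI1 was at 82.4 CPM in SAF6-3 against 335 and 351 CPM, and at 68.1 CPM in VAF6-3 against 395 and 360 CPM. ECHS1 was at 151 CPM against 574 and 509 CPM in SAF, and at 136 CPM against 610 and 469 CPM in VAF. In all, 31 of the 37 were lower in both SAF6-3 and VAF6-3, 2 (CPT1A and CPT1B) were higher in both, and 4 differed in direction. Shares over all genes were not computed for these 3 counts. Over all tested genes the deviations of these 2 libraries from their group means also went together (r = 0.633). In the same libraries PDK4, a kinase that rises on fasting and spares glucose, was at 1420 and 1026 CPM against 50.7 to 142 CPM in the other 4 of that age, and SCD, the stearoyl-CoA desaturase, was at 58.8 and 50.4 CPM against 21199 to 39482 CPM. The summed level of 7 macrophage markers was also higher, at 2519 CPM in VAF6-3 against 970 and 1031 CPM, and at 814 CPM in SAF6-3 against 367 and 630 CPM, with all 7 detected in each library, and the part of these cells in the pattern was not tested. This comparison of single libraries has no replicate check within a depot.

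**Figure D5:**
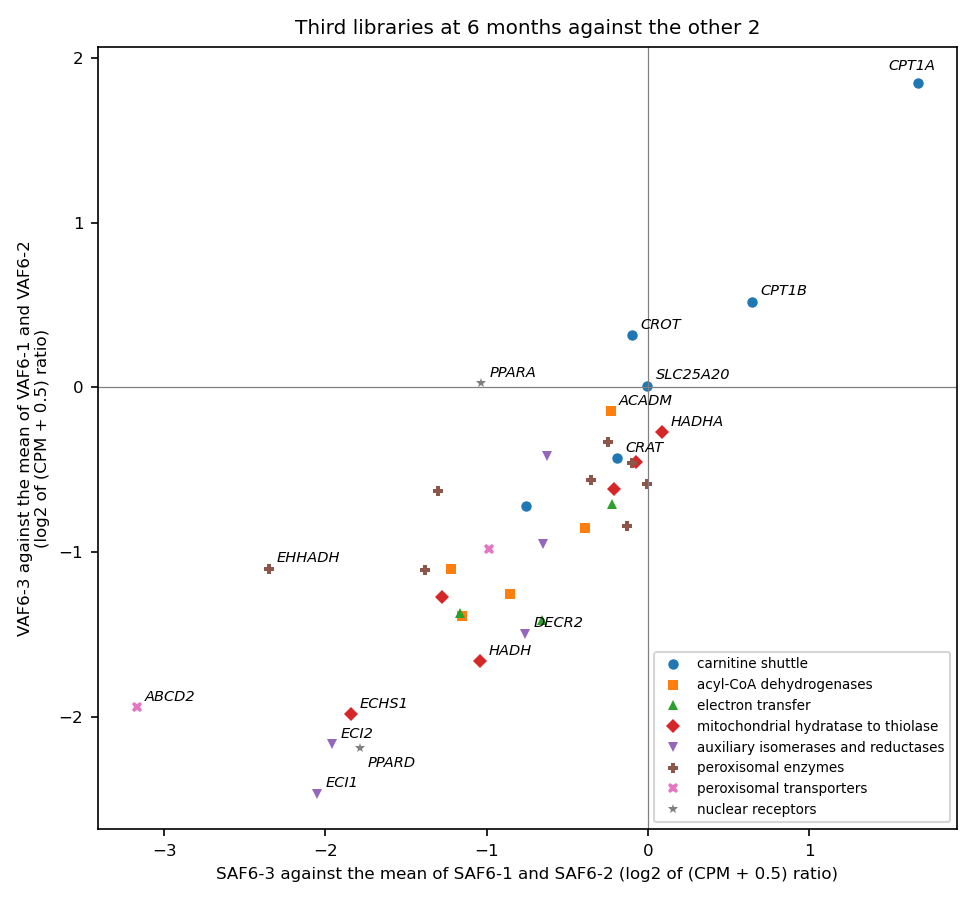
Log2 ratio of each of the 37 genes in SAF6-3 (horizontal) and VAF6-3 (vertical) against the mean of the other 2 libraries of the same depot at 6 months. CPT1A lies farthest to the upper right, and ECI1, ECI2, ECHS1, PPARD and ABCD2 at the lower left.

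Of the pathways that adjoin oxidation, lipogenesis and fatty acid uptake and activation had calls of edgeR. In VAF at 6 against 1 month 5 of the 11 lipogenesis genes were called, all higher at 6 months, where 0.936% of all genes were called. ACACA, which makes the malonyl-CoA that holds back CPT1A, had a log2 fold change of 2.78 ± 0.36 (SE, adjusted p = 0.0295), and FASN one of 3.55 ± 0.52 (SE, adjusted p = 0.0438). ELOVL6, ME1 and SREBF1 were the other calls. Of the 11 tested genes of fatty acid uptake and activation, SLC27A3 was called as lower (log2 fold change -1.68 ± 0.22, SE, adjusted p = 0.029). With VAF6-3 included, and under the other reading of the labels, edgeR called 0 of all genes in this comparison, so all of these calls were lost. In VAF6-3 FASN was at 257 and ACACA at 154 CPM, below every VAF1 library. Among 7 ketone body and fasting genes and 11 peroxisome membrane and import genes edgeR called 0, with 3 and 1 at an unadjusted p under 0.05. DESeq2 called ANGPTL4 and PDK4 as lower at 6 months in the former and PEX19 as higher in the latter. It called 5.65% of all genes there, among them 6 of lipogenesis and 3 of uptake and activation. In VAF6-3, left out of these calls, PDK4 was at 1026 CPM, above every VAF1 library. ANGPTL4 was at 302 CPM there, within the VAF1 range, and PEX19 at 189 CPM, below every VAF1 library. In the other 8 comparisons edgeR called 0 genes of these lists, between 0 and 6 genes of a list had an unadjusted p under 0.05, and DESeq2 called between 0 and 2.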

How the data were processed

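The authors trimmed reads with fastp, aligned them with HISAT2 (2.0.4 in the submitters' processing notes) to Sscrofa11.1 and counted them with HTSeq-count. The annotation release and strand setting are not given in the sources used here. Of the 37 genes, 8 overlap another gene on the opposite strand, so their counts may include its reads. These are ACADVL, GCDH, ETFDH, HADHB, ECI1, ECI2, ACAA1 and ACOT8. The deposited values are raw counts per gene for 18 libraries. Here they were tested with edgeR 4.0.16 in R 4.3.3 (TMM scaling, filterByExpr, quasi-likelihood, pairs of groups, and all 17 libraries for interactions), with DESeq2 1.42.0 as an alternative, and the code was tested on simulated data. The 37 genes and the other lists were chosen with earlier results of these data known. Values in every library are given for genes called anywhere, for up to 3 genes with the smallest p among those whose groups did not overlap in each comparison, and for CPT1A, CPT1B, CPT2, ACADVL, ACADM, HADHA, EHHADH, ABCD2, PPARA and PPARD. Further values were added after seeing the data. All same-numbered libraries deviated together (r above 0.1) between the depots at 6 months and in no other comparison. This held in 2 pairs without VAF6-3 (r = 0.312 and 0.255) and in 3 with it. Deviations from a group mean cancel out within the group, so these r are not separate checks of each pair. The main tests paired no samples. The replicate block was run as an alternative in every comparison, and between ages it matches different pigs by number alone. Annotated positions and lengths are from RefSeq on the same build.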

Additional observations from a re-analysis of the deposited data

Results flagged for a closer look

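CPT1A stood at 195 CPM in VAF6-3, a library outside every main comparison, and this was the highest level of the 18 libraries. The next highest was SAF6-3 with 170 CPM, the library that carries the same number in the other depot, and the remaining 16 lay between 35.4 and 101 CPM. No group of these data is large enough for a test of outlying samples, and edgeR called no interaction of depot and age for the 37 genes over the 17 libraries. From 3 to 6 months DESeq2 called ACADVL (among 0.467% of all genes), and edgeR without VAF3-3 called ETFDH (among 2.38%).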

How the results depend on the processing

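The number of the 37 genes called was 0 in the main fits apart from the 2 in VAF at 6 against 1 month. DESeq2 gave 2 for SAF against VAF at 3 months, among 4.35% of all genes. In SAF at 3 against 1, 6 against 3 and 6 against 1 month it gave 6, 1 and 1, among 2.5%, 1.61% and 2.56%. The same comparisons in VAF gave 2, 3 and 10, among 2.82%, 2.4% and 5.65%. For the interaction from 3 to 6 months it gave 1, among 0.467%. The replicate block gave 1 among 5.12% of all genes (SAF against VAF at 6 months), 3 among 1% (SAF at 3 against 1 month), 18 among 14.7% (VAF at 6 against 3 months, where VAF3-3 has no partner and drops out) and 5 among 5.46% (VAF at 6 against 1 month, where VAF1-3 drops out), and the block changed no other count. Between ages the block matches different pigs by number alone. Without the filter on low counts 2 were called in SAF at 3 against 1 month, among 0.567% of all genes. One fit over all 17 libraries gave 2, 1 and 0 in VAF at 3 against 1, 6 against 3 and 6 against 1 month (1.67% and 0.042% of all genes in the first 2), and with VAF6-3 included or under the other reading of the labels the last was 0. Leaving out single libraries gave 0 to 15 for SAF against VAF at 3 months and for VAF at 6 against 3 months, 0 to 6 for VAF at 3 against 1 month, and 0 to 1 for VAF at 6 against 1 month, SAF at 3 against 1 and 6 against 1 month and the interaction from 3 to 6 months. The counts of 15, 15 and 6 came without VAF3-3, where 17.6%, 11% and 6.44% of all genes were called. In SAF at 3 against 1 month the call came without SAF1-2 (ABCD2, among 0.198% of all genes). In SAF at 6 against 1 month it came without SAF6-3 (1.6%), and in VAF at 6 against 1 month without VAF1-1 (0.874%). In the interaction it came without VAF3-3 (ETFDH, among 2.38%). The median fold change ranged over these omissions from 0.044 to 0.23 for SAF against VAF at 1 month, and in SAF, where it was near 0, it took both signs with age. The cause was not tested. The log2 fold change turned under the other reading of the labels for DECR2 (SAF against VAF at 6 months, 0.055) and ECI1 (VAF at 6 against 3 months, -0.19). Groups of 2 or 3 libraries limit these counts, and the p-values set differences against the spread between libraries, not between pigs alone.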
